A study of Mus musculus with 10 samples.

Results

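Long intergenic noncoding RNAs (lincRNAs) expressed in mouse embryonic stem cells are described here over 4 genotypes. They are the genes that GENCODE M21 types as lincRNA, on chromosomes 1 to 19, with a mean of at least 2 FPKM over all 10 libraries (FPKM, fragments per kilobase of exon scaled to library size, a level per length). Of the 30460 genes in the files, 1843 carried that type and 1790 of these lay on chromosomes 1 to 19. The imprinted genes H19, Meg3, Rian, Mirg, Kcnq1ot1, Airn and Peg13 were left out by name, of which H19 (a mean of 3.00 FPKM) and Meg3 (3.74 FPKM) would have met the threshold. That left 1787 candidates, and 90 of them met it. Just inside the threshold were Gm15706 at 2.09, Gm43042 at 2.07 and D5Ertd605e at 2.04 FPKM, and just outside it were 2610037D02Rik at 1.99, Platr4 at 1.97 and 1300002E11Rik at 1.84 FPKM.

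RNA was sequenced from embryonic stem cells of the C57BL/6 strain, in 3 wild type libraries, 3 libraries labelled Mga-/- (Mga knockout), 2 labelled L3mbtl2-/- (L3mbtl2 knockout) and 2 labelled Pcgf6-/- (Pcgf6 knockout). Each knockout carries 1 deleted gene in the labels, and no treatment, time course or second allele is named. The labels name no clone, passage or culture for the replicates, so the p-values cover the spread among these libraries alone, and that spread may be technical. The question was how each knockout changes the RNA of these cells.

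A lincRNA is transcribed from a gene of its own, is usually spliced and carries no long reading frame. Some lincRNAs are abundant structural RNAs of the nucleus, some are the carriers of small nucleolar RNAs or microRNAs that are cut out of them, and many more are known only as clone or predicted gene names. The products of Mga, L3mbtl2 and Pcgf6 belong to PRC1.6, a Polycomb complex that silences genes in embryonic stem cells, germ cell genes above all. Within it MGA pairs with MAX to bind the E-box, E2F6 binds E2F sites, L3MBTL2 binds chromatin, and PCGF6 pairs with a RING1 ubiquitin ligase.

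Because 7 of the 10 libraries are knockouts, a mean over all of them admits genes that are high only in a knockout more readily than genes that are high only in wild type. In wild type 24 of the 90 lincRNAs had a group mean under 2 FPKM, against 4 in Mga knockout, 6 in L3mbtl2 knockout and 11 in Pcgf6 knockout. Counts of higher and lower lincRNAs below therefore describe the 90 genes and are not evidence of a direction. The same holds for the level of a single gene in a group through which alone it met the threshold.

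Library depth, as reads recovered from the FPKM steps, was 19.4 to 26.7 in units of 1e6 reads, and 1 read at a length of 2 kb was worth 0.0187 to 0.0258 FPKM. Every one of the 90 lincRNAs had at least 232 reads over the 10 libraries (median 1467), and all 90 passed the filter on low values of the test. L3mbtl2 fell in its own knockout (log2 fold change -2.45, limma adjusted p = 3.24e-05) and so did Pcgf6 (-1.56, adjusted p = 2.8e-05), while Mga stood at 43.5%, 106% and 60.5% of the wild type mean in the 3 libraries labelled Mga knockout (-0.61, adjusted p = 0.0987). The library labelled Mga knockout replicate 2 thus showed no fall of Mga RNA, and without it the log2 fold change of Mga was -0.95 (adjusted p = 0.000691). An RNA level alone does not settle the genotype of this library. Its Gm43549 level, given below, lay among those of the other Mga knockout libraries, and its Lncenc1 level lay between them and wild type. Mga knockout below stands for the 3 libraries so labelled. The Mga knockout libraries also differed most among themselves, with a median SD of a gene of 0.338 on the log2 scale against 0.0637 to 0.0864 in the other groups. All 9 embryonic stem cell markers examined (Pou5f1, Sox2, Nanog and others) were expressed, with a summed level of 2370 to 2570 FPKM in wild type and 3450 to 4200 FPKM in the knockouts. Summed macrophage markers were 179 to 186 FPKM in wild type, 28.8 to 67.1 in Mga knockout, 491 to 505 in L3mbtl2 knockout and 262 to 263 in Pcgf6 knockout, and none of the 14 was at 0 throughout. Summed fibroblast markers, 12 in number and none at 0 throughout, were 150 to 151 FPKM in wild type, 164 to 525 in Mga knockout, 166 to 167 in L3mbtl2 knockout and 107 to 111 in Pcgf6 knockout. The part of these cells in the results below was not tested. In such bulk samples fewer cells that carry an RNA and less RNA per cell cannot be told apart.

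The promoters of 5 lincRNAs whose levels are described below are shown because they bear on the DNA sites of PRC1.6, or, for Lncenc1, because the gene is among the most abundant and holds neither site. Each is a RefSeq window of 300 bases (GRCm38.p6), 250 before and 50 after the annotated start, printed 5′ to 3′ on the gene's strand. Capitals mark the E-box CACGTG, which reads the same on both strands, and the E2F type motif TTCCCGC or its reverse complement GCGGGAA. The 2 motifs do not overlap each other in these windows. The window of 1700001L05Rik is chr15:83367248-83367547 (minus strand), that of Halr1 is chr6:52102699-52102998 (plus strand), that of 1700057H21Rik is chr2:51437851-51438150 (minus strand), that of Gm17586 is chr11:120633500-120633799 (plus strand) and that of Lncenc1 is chr13:97434720-97435019 (plus strand).
1700001L05Rik: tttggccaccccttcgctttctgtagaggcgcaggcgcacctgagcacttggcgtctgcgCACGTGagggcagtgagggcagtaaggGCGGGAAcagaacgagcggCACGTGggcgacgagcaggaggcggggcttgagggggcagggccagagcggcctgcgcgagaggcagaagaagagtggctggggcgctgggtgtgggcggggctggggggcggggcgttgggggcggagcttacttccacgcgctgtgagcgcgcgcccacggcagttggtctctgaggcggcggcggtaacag
Halr1: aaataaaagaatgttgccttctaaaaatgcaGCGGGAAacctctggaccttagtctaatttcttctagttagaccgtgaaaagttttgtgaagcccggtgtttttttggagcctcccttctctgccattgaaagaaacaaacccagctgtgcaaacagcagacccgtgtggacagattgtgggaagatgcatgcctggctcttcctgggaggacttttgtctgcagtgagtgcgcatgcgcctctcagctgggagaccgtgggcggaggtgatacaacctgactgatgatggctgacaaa
1700057H21Rik: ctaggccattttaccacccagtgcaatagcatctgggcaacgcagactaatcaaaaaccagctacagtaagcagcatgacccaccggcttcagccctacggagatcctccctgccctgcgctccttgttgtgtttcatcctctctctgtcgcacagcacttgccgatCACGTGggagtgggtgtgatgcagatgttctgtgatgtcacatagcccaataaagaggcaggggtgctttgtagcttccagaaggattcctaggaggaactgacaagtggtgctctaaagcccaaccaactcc
Gm17586: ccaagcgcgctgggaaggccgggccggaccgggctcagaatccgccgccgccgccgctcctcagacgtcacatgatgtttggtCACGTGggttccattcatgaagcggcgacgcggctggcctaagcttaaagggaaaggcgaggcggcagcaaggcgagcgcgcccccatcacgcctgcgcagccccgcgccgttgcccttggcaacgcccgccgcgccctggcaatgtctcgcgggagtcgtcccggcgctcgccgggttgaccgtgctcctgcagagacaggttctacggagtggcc
Lncenc1: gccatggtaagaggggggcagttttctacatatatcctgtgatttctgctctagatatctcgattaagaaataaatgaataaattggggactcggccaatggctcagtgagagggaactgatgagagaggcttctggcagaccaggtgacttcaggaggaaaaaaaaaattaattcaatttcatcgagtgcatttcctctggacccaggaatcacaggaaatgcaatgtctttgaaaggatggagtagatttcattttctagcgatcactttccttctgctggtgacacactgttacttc

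Counting from 1 at the 5′ end of each window, the E-boxes of 1700001L05Rik began at bases 61 and 107 and its E2F type motif at base 88. The E2F type motif of Halr1 began at base 32, the E-box of 1700057H21Rik at base 168 and the E-box of Gm17586 at base 84. RefSeq and GENCODE place the start of 1700057H21Rik 885 bases apart, so its window may not be the promoter of the transcript measured. A RefSeq window was matched to 48 of the 90 lincRNAs. An E-box was present in 4 of these 48 (8.33%), namely Platr10, 1700001L05Rik, Gm17586 and 1700057H21Rik, against 7.15% of all 32851 RefSeq promoter windows of the same length. An E2F type motif was present in 6 of the 48 (12.5%), namely AU020206, Halr1, 1700001L05Rik, 2700038G22Rik, 2010320M18Rik and Gm15706, against 4.60% of all windows. Among the lincRNAs not called in Mga, L3mbtl2 and Pcgf6 knockout this share was 12.5%, 11.5% and 12.5% (24, 26 and 40 windows). Among those higher it was 16.7%, 10.5% and 14.3% (18, 19 and 7 windows), and of those lower 0 of 6, 1 of 3 and 0 of 1 held the motif. For 10 of the 48, 1700057H21Rik among them, the RefSeq start lay more than 300 bases from that of GENCODE (1122708 bases for Gm10479). Over the other 38 windows, a choice made after seeing the data, the shares were 7.89% with an E-box (3 windows) and 15.8% with an E2F type motif (6 windows). Each match is a description of letters in the window and not of a binding site.

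The lincRNAs spanned a wide range of levels in each genotype. Their group means ran from 0 to 133.9 FPKM in wild type, from 1.0 to 127.5 in Mga knockout, from 1.16 to 113.9 in L3mbtl2 knockout and from 0.871 to 179.5 in Pcgf6 knockout. The median of the 90 group means was 3.63 FPKM in wild type, 5.5 in Mga knockout, 6.90 in L3mbtl2 knockout and 5.12 in Pcgf6 knockout. Summed over the 90, the level was 813 to 831 FPKM in the wild type libraries, 829 to 853 in the Mga knockout libraries, 1095 to 1103 in the L3mbtl2 knockout libraries and 988 to 1018 in the Pcgf6 knockout libraries. The sums of L3mbtl2 and Pcgf6 knockout libraries thus lay above every wild type library, and the lowest Mga knockout library lay between 2 wild type libraries. Of the 90, 7 had their highest group mean in wild type, 31 in Mga knockout, 34 in L3mbtl2 knockout and 18 in Pcgf6 knockout, and 46 had their lowest in wild type. The rule admits genes high in a knockout more readily, so these medians, sums and counts are not evidence of a direction.

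**Figure D1:**
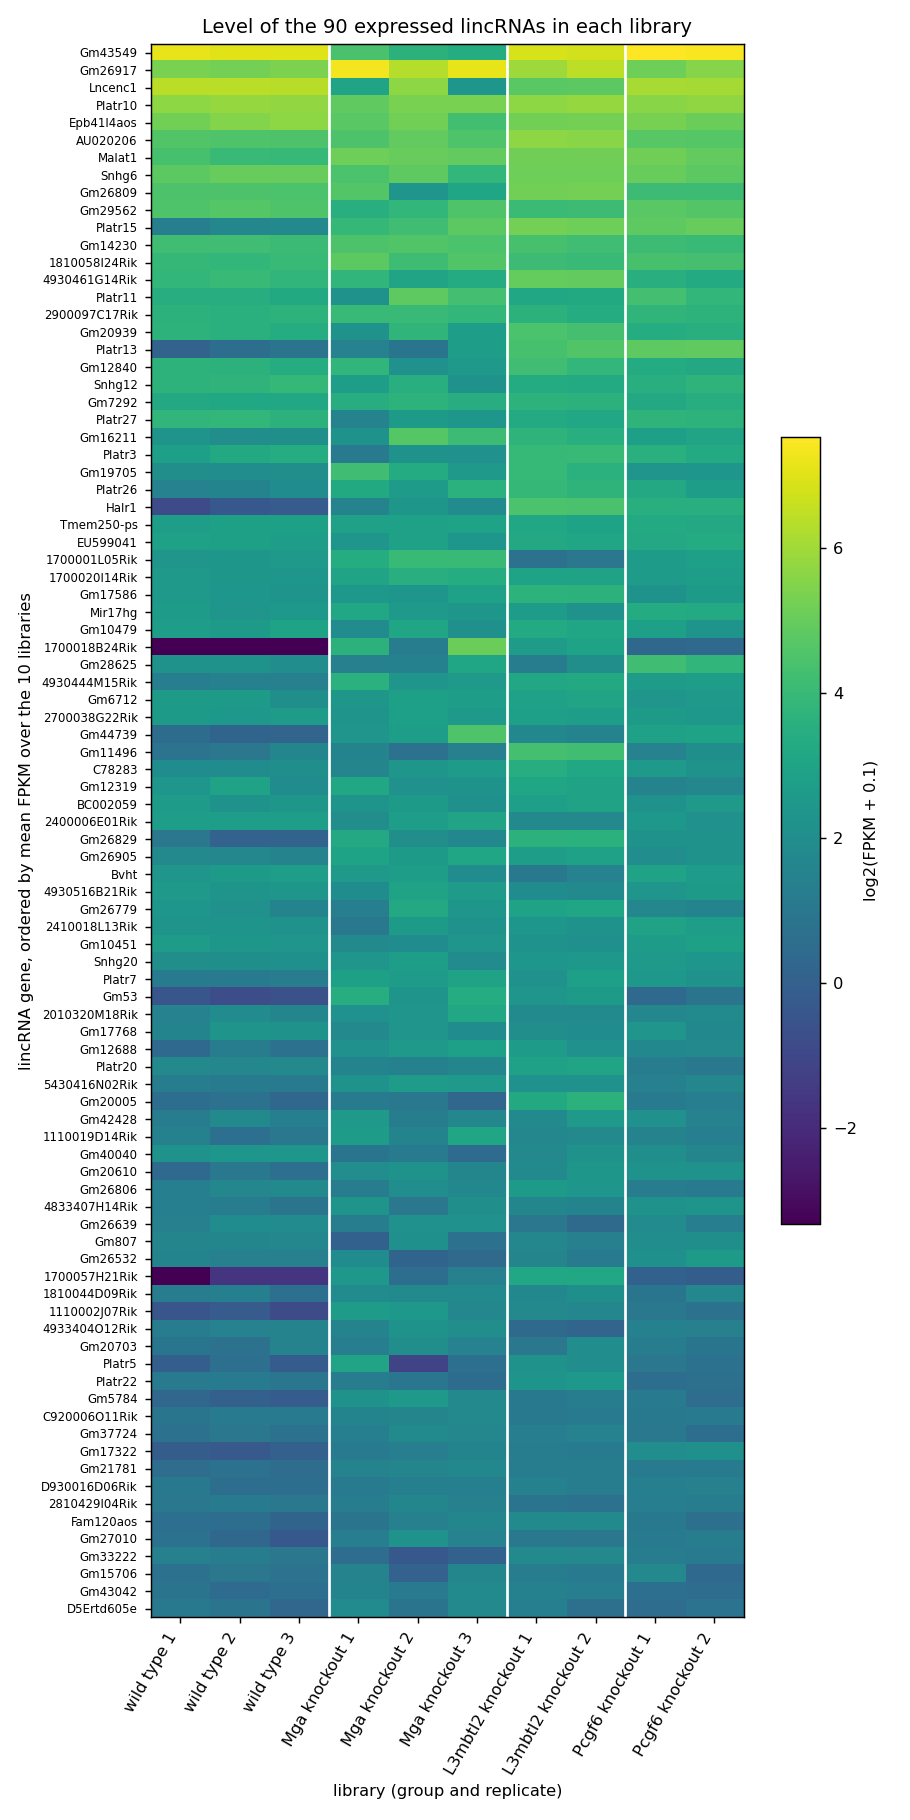
Level of each of the 90 lincRNAs (rows, ordered by mean FPKM over the 10 libraries) in each library (columns, white lines between genotypes), as log2(FPKM + 0.1) in color. Gm43549 at the top is high in all libraries but those labelled Mga knockout, and 1700018B24Rik is at 0 in the 3 wild type libraries.

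The order of the most abundant lincRNAs differed between genotypes. In wild type the predicted gene Gm43549 led with a group mean of 133.9 FPKM, followed by Lncenc1 at 84.0, Platr10 at 53.9, Epb41l4aos at 44.7 and Gm26917 at 40.1 FPKM. Of these, Epb41l4aos at 37.1 to 50.7 FPKM and Gm26917 at 38.1 to 41.7 FPKM overlapped each other in wild type, and the others did not overlap their neighbors in this order. Gm26917 led in Mga knockout, and Gm43549 led in L3mbtl2 and Pcgf6 knockout.

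Mga knockout libraries had little Gm43549. This 2-exon gene on chromosome 3 (55578105 to 55582730, GRCm38, minus strand) has no described function. Its level was 143, 132 and 126 FPKM in the wild type libraries, 21.2, 12.5 and 10.5 FPKM in those labelled Mga knockout, 117 and 111 FPKM in L3mbtl2 knockout and 185 and 174 FPKM in Pcgf6 knockout. The 3 Mga knockout libraries, replicate 2 among them, lay far below all the others, and the other groups did not overlap wild type either. Against wild type the log2 fold change was -3.24 ± 0.22 in Mga knockout (SE, limma adjusted p = 2.79e-05), -0.23 ± 0.24 in L3mbtl2 knockout (adjusted p = 0.473) and 0.42 ± 0.24 in Pcgf6 knockout (adjusted p = 0.307). Between knockouts the Mga knockout level was lower than that of L3mbtl2 knockout by a log2 difference of -3.01 ± 0.24 (adjusted p = 0.000119). The nearest protein-coding start was that of Mab21l1, 199780 bases away, which was close to 0 in every group (0.0174 to 0.0876 FPKM).

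Lncenc1, a lincRNA of naive embryonic stem cells that is known for its role in their self-renewal, varied widely between the libraries of Mga knockout. It was at 84.9, 84.3 and 82.9 FPKM in wild type, at 8.0, 51.8 and 5.09 FPKM in Mga knockout, at 26.9 and 27.5 FPKM in L3mbtl2 knockout and at 68.4 and 67.3 FPKM in Pcgf6 knockout. Every knockout library lay below every wild type library, and the library labelled Mga knockout replicate 2 was the highest of its group. Lncenc1 fell in Mga knockout (log2 fold change -2.70 ± 0.69, adjusted p = 0.0155), and without the library labelled replicate 2 the log2 fold change was -3.70 (adjusted p = 3.01e-06). With only the 2 groups compared in the fit the adjusted p was 0.0541. In L3mbtl2 knockout the value of -1.62 ± 0.78 did not pass in the fit of all 10 libraries (adjusted p = 0.127), and it passed with Mga knockout replicate 2, the library so labelled, left out (adjusted p = 0.000137) and with only the 2 groups compared in the fit (adjusted p = 8.73e-06). In Pcgf6 knockout the value was -0.31 ± 0.78 (adjusted p = 0.856). Enc1, whose start lies 193865 bases away on the same strand, had group means of 28, 28.1, 49.4 and 32.3 FPKM in wild type, Mga, L3mbtl2 and Pcgf6 knockout.

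Gm26917 moved the opposite way in Mga knockout. It is a gene of 1 exon on chromosome 17 (39843013 to 39846341), 13 bases before the ribosomal RNA copy Rn18s-rs5, a pseudogene in RefSeq. Ribosomal DNA is present in many near-identical copies, so its level is uncertain. The values were 40.6, 38.1 and 41.7 FPKM in wild type, 162, 79.8 and 141 FPKM in Mga knockout, 61.4 and 86.3 FPKM in L3mbtl2 knockout and 35.3 and 46.7 FPKM in Pcgf6 knockout. All Mga and L3mbtl2 knockout libraries lay above wild type, and Pcgf6 knockout overlapped wild type. The rise in Mga knockout was 1.60 ± 0.25 on the log2 scale (adjusted p = 0.00179). In L3mbtl2 knockout it was 0.86 ± 0.28 (adjusted p = 0.0394), a call that was lost without any 1 of the 3 wild type, 2 L3mbtl2 knockout or 2 Pcgf6 knockout libraries (adjusted p of 0.0518 to 0.249).

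Malat1, the abundant RNA of nuclear speckles and the only nuclear body RNA among the 90, was higher in all 3 knockouts. It was at 20.3, 16.3 and 15.2 FPKM in wild type, 34.7, 32.3 and 29.9 FPKM in Mga knockout, 36 and 35.8 FPKM in L3mbtl2 knockout and 36.5 and 30.7 FPKM in Pcgf6 knockout. No knockout library overlapped wild type, and the range of Pcgf6 knockout took in L3mbtl2 knockout and overlapped Mga knockout. The log2 fold changes were 0.91 ± 0.12 (adjusted p = 0.000829), 1.06 ± 0.14 (adjusted p = 0.000679) and 0.96 ± 0.14 (adjusted p = 0.00486) in Mga, L3mbtl2 and Pcgf6 knockout, and these 3 comparisons share the wild type libraries. Without Pcgf6 knockout replicate 1 the last of them had an adjusted p of 0.0711.

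**Figure D2:**
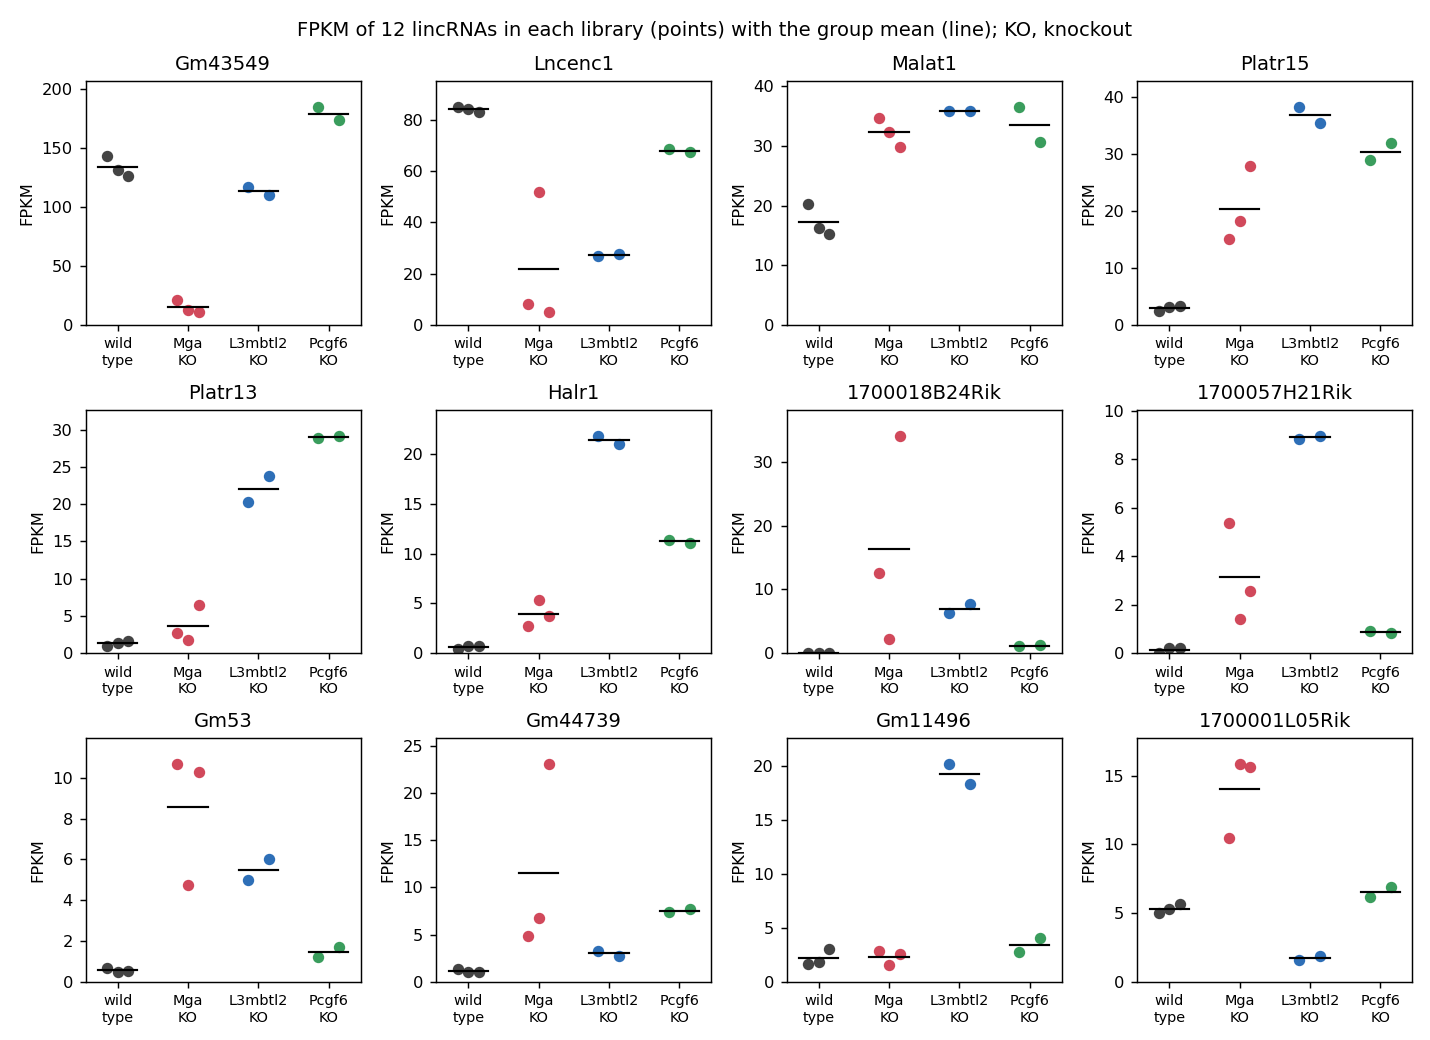
Level in FPKM (vertical axes, each from 0) of 12 lincRNAs in every library (points) with the group mean (line), by genotype. Gm43549 is low only in the 3 libraries labelled Mga knockout (10.5 to 21.2 FPKM), Malat1 is higher in all 7 knockout libraries than in wild type, and 1700001L05Rik is high in Mga knockout and low in L3mbtl2 knockout.

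Against wild type, 38 of the 90 lincRNAs were higher and 9 lower in Mga knockout, and 43 did not pass. Of all 15731 genes tested 22.8% were higher and 16.7% lower in the same comparison. Of the 38 higher lincRNAs 19 had a wild type mean under 2 FPKM. The median log2 fold change was 0.31 over the 90 and 0.10 over all genes tested. Without the library labelled Mga knockout replicate 2, 40 were higher (37 of them among the 38) and 14 lower (all 9 among them). The call held in all 19 other settings tried for 25 of the 38 and 6 of the 9.

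In L3mbtl2 knockout 38 lincRNAs were higher, 5 were lower and 47 did not pass, where 23.4% of all genes tested were higher and 16.7% lower. A wild type mean under 2 FPKM was found for 17 of the 38. The median log2 fold change was 0.58 over the 90 and 0.13 over all genes tested. Leaving out L3mbtl2 knockout replicate 1 gave 25 higher and 3 lower, and leaving out replicate 2 gave 28 higher and 2 lower. Genes of chromosome 1 stood higher as a whole in L3mbtl2 knockout, with a median log2 fold change of 0.75 over 904 genes. The 6 lincRNAs on that chromosome are Snhg6, Gm19705, Platr5, Platr22, Gm37724 and Gm33222, and with each chromosome's median taken away 32 lincRNAs were higher and 6 lower.

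In Pcgf6 knockout 16 lincRNAs were higher, 1 was lower and 73 did not pass, where 5.45% of all genes tested were higher and 4.62% lower. Of the 16, 9 had a wild type mean under 2 FPKM. The median log2 fold change was 0.28 over the 90 and 0.04 over all genes tested. This count rested on the choice of libraries. It was 4 without Pcgf6 knockout replicate 1, 5 without Pcgf6 knockout replicate 2, 10 without either L3mbtl2 knockout library, 28 without Mga knockout replicate 1, 27 without the library labelled Mga knockout replicate 2, and 38 when only wild type and Pcgf6 knockout entered the fit. Platr15, Platr13, Halr1 and Gm17322 were the 4 that held in all 19 other settings. Gm17322 met the threshold only through Pcgf6 knockout, so its rise there is partly set by the choice of genes.

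**Figure D3:**
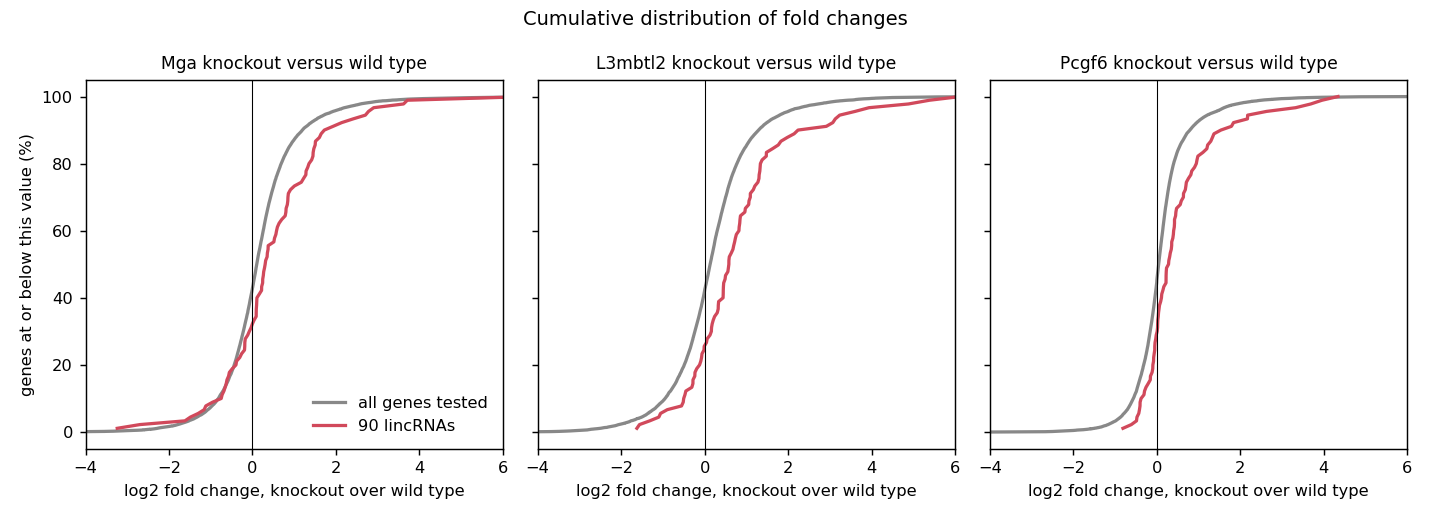
Percentage of genes (vertical axis) at or below each log2 fold change against wild type (horizontal axis) for the 90 lincRNAs (red) and all 15731 genes tested (grey), 1 panel per knockout. The red lines lie to the right of the grey ones over most of the range, with medians of 0.31, 0.58 and 0.28 against 0.10, 0.13 and 0.04, in a set that was chosen by its mean over libraries most of which are knockouts.

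LincRNAs listed for embryonic stem cells, matched by gene name, made up 13 of the 90. They were Lncenc1, Halr1 and 11 of the Platr genes, which were named as transcripts associated with pluripotency. Norad, also on that list, is among the 90 as 2900097C17Rik and is counted with the other RIKEN clone names below. It rose in Mga knockout (log2 fold change 0.30, limma adjusted p = 0.0302). It did not pass in L3mbtl2 knockout (-0.12, adjusted p = 0.375) or Pcgf6 knockout (0.11, adjusted p = 0.558). Halr1, which rose in each knockout, is also counted with the developmental lincRNAs below. In Mga knockout 5 of the 13 rose and 4 fell, in L3mbtl2 knockout 7 rose and none fell, and in Pcgf6 knockout 5 rose and 1 fell. Of all genes tested, 22.8% were higher and 16.7% lower in Mga knockout, with 23.4% and 16.7% for L3mbtl2 knockout and 5.45% and 4.62% for Pcgf6 knockout. By limma's unadjusted p under 0.05 in the fit of all 10 libraries there were still 0 falls in L3mbtl2 knockout, beside 8 rises. Lncenc1, however, lay below wild type in both L3mbtl2 knockout libraries. It passed as a fall without the library labelled Mga knockout replicate 2 (limma adjusted p = 0.000137) and with only the 2 groups in the fit (8.73e-06). The median log2 fold changes of the 13 were 0.37, 1.30 and 0.68. The summed level of the embryonic stem cell marker genes, given above, was also higher in every knockout library than in wild type, and its part in these values was not tested.

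Platr15 (chromosome 2, 150704536 to 150706876, minus strand) rose in all 3 knockouts. It was at 2.40, 3.17 and 3.33 FPKM in wild type, 15.1, 18.2 and 27.8 FPKM in Mga knockout, 38.2 and 35.4 FPKM in L3mbtl2 knockout and 28.9 and 31.8 FPKM in Pcgf6 knockout. No knockout library came near the wild type range, and Mga knockout was the lowest of the knockouts. On the log2 scale the rises were 2.71 ± 0.21 (adjusted p = 7e-05), 3.60 ± 0.24 (adjusted p = 3.45e-05) and 3.33 ± 0.24 (adjusted p = 0.000233). The nearest protein-coding gene, Vsx1, had group means of 0.0281 to 0.300 FPKM.

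Platr13 (chromosome 11, 41218837 to 41221096, plus strand) separated Mga knockout from the other knockouts. Its level was 1.0, 1.40 and 1.70 FPKM in wild type and 2.69, 1.76 and 6.44 FPKM in Mga knockout. It was 20.3 and 23.7 FPKM in L3mbtl2 knockout and 28.9 and 29.2 FPKM in Pcgf6 knockout. The Mga knockout libraries thus lay above wild type, from barely so (1.76 FPKM) to well above it (6.44 FPKM), and far below the other 4 knockout libraries. The rise was 3.94 ± 0.45 on the log2 scale in L3mbtl2 knockout (adjusted p = 0.00041) and 4.34 ± 0.45 in Pcgf6 knockout (adjusted p = 0.00134). In Mga knockout it was 1.17 ± 0.40 (adjusted p = 0.046), and this call was lost without each library but the one labelled Mga knockout replicate 2 (adjusted p of 0.059 to 0.143). Mga knockout differed from Pcgf6 knockout by -3.17 ± 0.45 (adjusted p = 0.00252) and from L3mbtl2 knockout by -2.77 ± 0.45 (adjusted p = 0.00333). With only the 2 groups of each comparison in the fit these adjusted p were 0.0631 and 0.0567.

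Halr1, a developmental lincRNA on chromosome 6, was at 0.469, 0.687 and 0.766 FPKM in wild type. It was at 2.75, 5.30 and 3.69 FPKM in Mga knockout, 21.9 and 21 FPKM in L3mbtl2 knockout and 11.4 and 11.1 FPKM in Pcgf6 knockout. The 4 genotypes did not overlap at all, in the order wild type, Mga, Pcgf6 and L3mbtl2 knockout. Against wild type the log2 fold changes were 2.41 ± 0.24 (adjusted p = 0.000189), 4.88 ± 0.27 (adjusted p = 1.28e-05) and 3.96 ± 0.27 (adjusted p = 0.00018) in Mga, L3mbtl2 and Pcgf6 knockout. Mga knockout stood below L3mbtl2 knockout by -2.47 ± 0.27 (adjusted p = 0.000483). The Halr1 window printed above holds an E2F type motif and no E-box.

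Platr26 and Platr7 rose in each knockout too. Platr26 was at 2.74, 2.86 and 3.81 FPKM in wild type, 9.56, 6.25 and 12.1 FPKM in Mga knockout, 15 and 13.1 FPKM in L3mbtl2 knockout and 9.20 and 6.52 FPKM in Pcgf6 knockout. Platr7 was at 2.04, 2.10 and 2.28 FPKM in wild type, 7.19, 6.10 and 7.49 FPKM in Mga knockout, 4.42 and 6.83 FPKM in L3mbtl2 knockout and 5.42 and 4.68 FPKM in Pcgf6 knockout. For both, all knockout libraries lay above all wild type libraries. The Pcgf6 knockout call of Platr26 (1.29 ± 0.28, adjusted p = 0.0229) was lost without wild type replicate 1 or 2 or either Pcgf6 knockout library (adjusted p of 0.0817 to 0.199), and that of Platr7 (1.2 ± 0.19, adjusted p = 0.0073) without either Pcgf6 knockout library (adjusted p of 0.0636 and 0.0912).

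Other members of the family fell in Mga knockout. The wild type libraries had 14.2, 14.6 and 12.6 FPKM of Platr27, and the Mga knockout libraries had 2.82, 5.91 and 5.16 FPKM (-1.62 ± 0.24 on the log2 scale, adjusted p = 0.00126). Platr3 was at 6.90, 9.44 and 10.4 FPKM in wild type against 2.06, 4.71 and 4.44 FPKM in Mga knockout (-1.30 ± 0.30, adjusted p = 0.00917), against 15.1 and 16.2 FPKM in L3mbtl2 knockout. Platr10, the most abundant Platr gene, was at 51.6, 55.8 and 54.4 FPKM in wild type against 29.3, 40.9 and 41.1 FPKM in Mga knockout (-0.55 ± 0.13, adjusted p = 0.00993). In all 3 genes the Mga knockout libraries lay below every wild type library. Neither L3mbtl2 nor Pcgf6 knockout passed the threshold against wild type for any of them. The difference between Mga and L3mbtl2 knockout was -2.13 ± 0.33 for Platr3 (adjusted p = 0.00279, and 0.0509 with only these groups in the fit).

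Platr20 and Platr22 were higher in L3mbtl2 knockout. Platr20 was at 3.33, 3.16 and 3.31 FPKM in wild type, 2.91, 2.60 and 3.09 FPKM in Mga knockout, 7.34 and 7.97 FPKM in L3mbtl2 knockout and 2.31 and 1.91 FPKM in Pcgf6 knockout. Only L3mbtl2 knockout lay above wild type, and both other knockouts lay below it. The log2 fold change was 1.2 ± 0.13 in L3mbtl2 knockout (adjusted p = 0.000373) and -0.61 ± 0.13 in Pcgf6 knockout (adjusted p = 0.0251), the latter being the 1 lincRNA that fell there. That fall was lost without any 1 of the wild type, L3mbtl2 knockout or Pcgf6 knockout libraries (adjusted p of 0.0562 to 0.23). The median of chromosome 11, where Platr20 lies, was -0.31 in the Pcgf6 comparison, and with it taken away the value was -0.31 (adjusted p = 0.162). Platr22, on chromosome 1, was at 2.07, 2.15 and 1.79 FPKM in wild type against 4.74 and 5.42 FPKM in L3mbtl2 knockout (1.30 ± 0.21, adjusted p = 0.00201), and with the median of chromosome 1 taken away its log2 fold change was 0.54 (adjusted p = 0.042). Outside L3mbtl2 knockout Platr22 averaged under 2 FPKM, so it met the threshold only through that group.

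**Figure D4:**
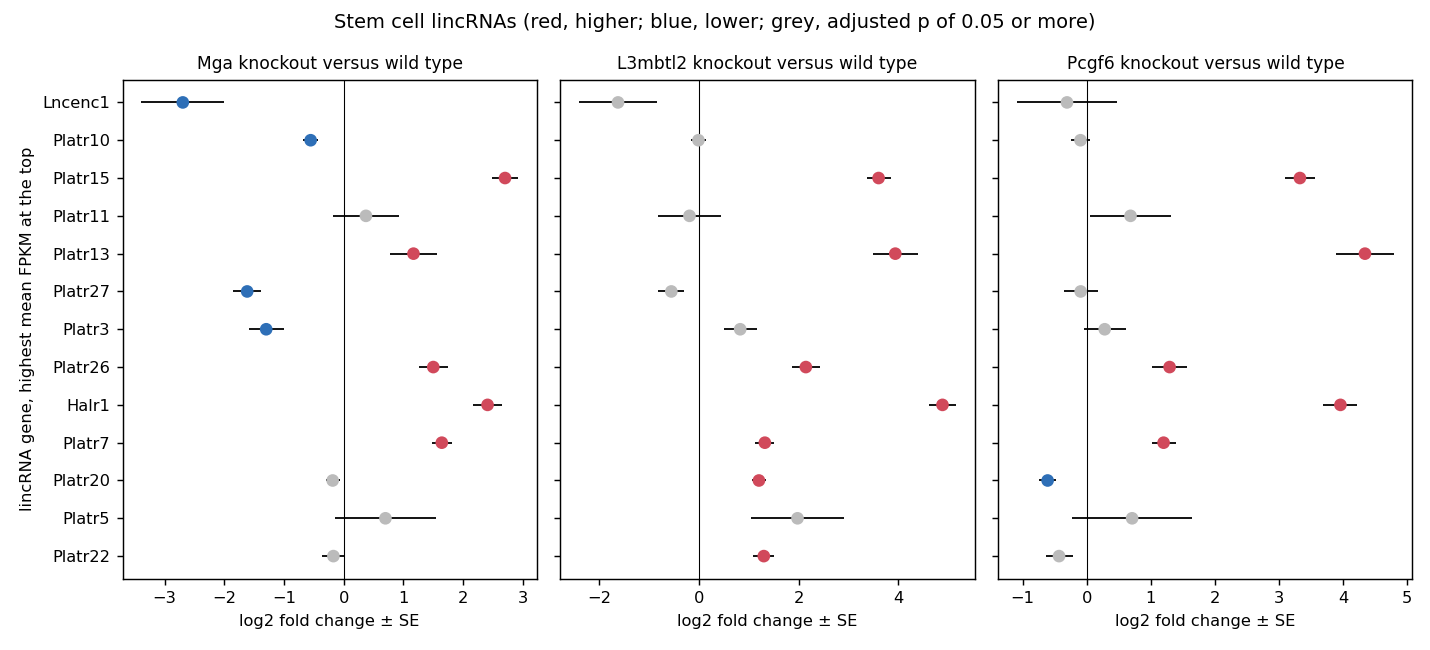
Log2 fold change against wild type (points) with its standard error (lines) for the 13 lincRNAs listed for embryonic stem cells (Norad not shown), 1 panel per knockout, in order of mean FPKM. Platr15, Platr13, Halr1, Platr26 and Platr7 are higher in each panel, and Lncenc1, Platr10, Platr27 and Platr3 are lower in the Mga knockout panel.

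Bvht, a lincRNA known from the commitment of cardiac mesoderm, was the other developmental lincRNA among the 90 besides Halr1. It was at 5.03, 6.00 and 6.77 FPKM in wild type, 5.54, 6.56 and 3.81 FPKM in Mga knockout, 1.99 and 2.67 FPKM in L3mbtl2 knockout and 7.64 and 6.20 FPKM in Pcgf6 knockout. Only L3mbtl2 knockout lay apart from wild type, below it (log2 fold change -1.32 ± 0.24, adjusted p = 0.00362). L3mbtl2 knockout was also below Pcgf6 knockout (-1.54 ± 0.27, adjusted p = 0.00423). Summed mesoderm markers (6 genes, T and Mixl1 among them, none at 0 throughout) were 20.5 to 22.2 FPKM in wild type, 9.39 to 27.7 in Mga knockout, 5.42 to 5.72 in L3mbtl2 knockout and 7.38 to 7.58 in Pcgf6 knockout, and their part in the value of Bvht was not tested.

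LincRNAs with RIKEN clone names from testis libraries numbered 8. They were chosen by the start of the name alone, which does not show where a gene is expressed. In Mga knockout 5 of them rose and none fell, in L3mbtl2 knockout 5 rose and 2 fell, and in Pcgf6 knockout 2 rose and none fell. Beside these stand 22.8%, 23.4% and 5.45% of all genes tested that were higher, and 42.2%, 42.2% and 17.8% of the 90 lincRNAs. Lower were 16.7%, 16.7% and 4.62% of all genes tested. By limma's unadjusted p under 0.05, 1 was lower in Mga knockout and 1 in Pcgf6 knockout. Summed germ cell markers (8 genes, Dazl and Ddx4 among them, none at 0 throughout) stood at 18.5 to 19.4 FPKM in wild type, 550 to 1530 in Mga knockout, 864 to 870 in L3mbtl2 knockout and 122 to 123 in Pcgf6 knockout, and their relation to the clone-named lincRNAs was not tested.

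The testis clone gene 1700018B24Rik (chromosome 3, 48605732 to 48609102, minus strand, 2 exons) had no read in any wild type library. It was at 12.5, 2.30 and 34.1 FPKM in Mga knockout, 6.25 and 7.69 FPKM in L3mbtl2 knockout and 1.16 and 1.22 FPKM in Pcgf6 knockout. All knockout libraries lay above wild type, and the library labelled Mga knockout replicate 2 was the lowest of its group. From a floor of 3 reads over the wild type group (0.0655 FPKM) the level was at least 249-fold higher in Mga knockout, at least 106-fold higher in L3mbtl2 knockout and at least 18.2-fold higher in Pcgf6 knockout. Without Mga knockout replicate 3, the highest library, the first of these bounds was 113-fold. The limma adjusted p were 0.000424, 0.00104 and 0.0318. The Pcgf6 knockout call was lost without any 1 of the wild type, L3mbtl2 knockout or Pcgf6 knockout libraries (adjusted p of 0.0618 to 0.19), and with a pseudocount of 1 its adjusted p was 0.406.

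Another gene of that list, 1700057H21Rik (chromosome 2, 51420984 to 51438785, minus strand), was at 0, 0.215 and 0.216 FPKM in wild type against 5.38, 1.42 and 2.57 FPKM in Mga knockout. It was at 8.82 and 8.97 FPKM in L3mbtl2 knockout and at 0.926 and 0.815 FPKM in Pcgf6 knockout. Each knockout lay above wild type, with L3mbtl2 knockout highest and Pcgf6 knockout lowest of the knockouts, and the genotypes did not overlap. Outside L3mbtl2 knockout 1700057H21Rik averaged under 2 FPKM, so it met the threshold only through that group. Its rise there is thus partly set by the choice of genes. Its log2 fold change was 3.71 ± 0.54 in Mga knockout (adjusted p = 0.00128), 5.39 ± 0.61 in L3mbtl2 knockout (adjusted p = 0.000391) and 2.17 ± 0.61 in Pcgf6 knockout (adjusted p = 0.0562). Rnd3, the nearest protein-coding gene, had a log2 fold change of -1.03 in L3mbtl2 knockout (adjusted p = 0.0163).

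The gene with both motifs in its window, 1700001L05Rik (chromosome 15, 83353847 to 83367282, minus strand, 4 exons), moved in opposite directions in 2 knockouts. It was at 5.02, 5.27 and 5.68 FPKM in wild type, 10.5, 15.8 and 15.7 FPKM in Mga knockout, 1.61 and 1.87 FPKM in L3mbtl2 knockout and 6.17 and 6.87 FPKM in Pcgf6 knockout. No 2 genotypes overlapped, with L3mbtl2 knockout below wild type and Mga knockout above all others. Its log2 fold change was 1.35 ± 0.17 in Mga knockout (adjusted p = 0.000527), -1.56 ± 0.18 in L3mbtl2 knockout (adjusted p = 0.000491) and 0.29 ± 0.18 in Pcgf6 knockout (adjusted p = 0.37). The difference between Mga and L3mbtl2 knockout was 2.92 ± 0.18 (adjusted p = 3.81e-05). Arfgap3, whose start lies 17035 bases away, had adjusted p of 0.799, 0.484 and 0.371 in the same comparisons with wild type. A second clone of this list, 4933404O12Rik, fell in L3mbtl2 knockout from 2.32, 2.71 and 2.76 to 1.26 and 1.06 FPKM (-1.10 ± 0.22, adjusted p = 0.00506, and 0.0503 without L3mbtl2 knockout replicate 2).

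LincRNAs with other RIKEN clone names numbered 14, with Norad (2900097C17Rik) among them. Of these 9 rose and none fell in Mga knockout, 4 rose and 1 fell in L3mbtl2 knockout, and 1 rose and none fell in Pcgf6 knockout. The share of all genes tested was 22.8% higher and 16.7% lower in Mga knockout, 23.4% and 16.7% in L3mbtl2 knockout, to which the 4 rises of 14 come near, and 5.45% and 4.62% in Pcgf6 knockout. By limma's unadjusted p under 0.05 there were 0 falls in Mga knockout and 0 in Pcgf6 knockout as well, beside 10 and 4 rises. The largest rise was that of 1110002J07Rik, from 0.655, 0.770 and 0.454 FPKM in wild type to 6.37, 5.49 and 3.16 FPKM in Mga knockout (2.78 ± 0.27, adjusted p = 0.000183). In L3mbtl2 knockout it was at 3.35 and 3.18 FPKM (2.24 ± 0.30, adjusted p = 0.000887) and in Pcgf6 knockout at 1.91 and 1.59 FPKM. All knockout libraries lay above wild type. Outside Mga knockout 1110002J07Rik averaged under 2 FPKM, so it met the threshold only through that group. The Pcgf6 knockout call (1.37 ± 0.30, adjusted p = 0.0262) was lost without any 1 of the wild type, L3mbtl2 knockout or Pcgf6 knockout libraries (adjusted p of 0.0548 to 0.196).

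Predicted gene models, named Gm and a number, were the largest group with 41 of the 90. In Mga knockout 17 rose and 3 fell, in L3mbtl2 knockout 18 rose and 1 fell, and in Pcgf6 knockout 6 rose and none fell (12 and 1 by limma's unadjusted p under 0.05). Over all genes tested 22.8%, 23.4% and 5.45% were higher and 16.7%, 16.7% and 4.62% lower. The share of rises in Mga knockout was close to that of the 90 lincRNAs as a whole (42.2%), of which these genes are a large part. Gm53 (chromosome 11, 96251105 to 96264868, plus strand) starts 20352 bases from the start of Hoxb9, a patterning gene of the Hoxb cluster. It was at 0.652, 0.498 and 0.548 FPKM in wild type, 10.7, 4.74 and 10.3 FPKM in Mga knockout, 4.97 and 6.02 FPKM in L3mbtl2 knockout and 1.21 and 1.71 FPKM in Pcgf6 knockout. All knockout libraries lay above wild type, Pcgf6 knockout least, and Mga and L3mbtl2 knockout overlapped each other. The log2 fold change was 3.62 ± 0.30 in Mga knockout (adjusted p = 8.98e-05), 3.07 ± 0.34 in L3mbtl2 knockout (adjusted p = 0.000362) and 1.22 ± 0.34 in Pcgf6 knockout (adjusted p = 0.0559). Hoxb9 itself passed in Mga knockout (1.33, adjusted p = 0.0117) and in L3mbtl2 knockout (1.27, adjusted p = 0.0219), at group means of 1.23 FPKM in wild type, 3.44 in Mga knockout and 3.07 in L3mbtl2 knockout.

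Gm44739 was at 1.35, 1.02 and 1.05 FPKM in wild type, 4.89, 6.72 and 23.1 FPKM in Mga knockout, 3.25 and 2.77 FPKM in L3mbtl2 knockout and 7.34 and 7.71 FPKM in Pcgf6 knockout. Each knockout library was above wild type, and Mga knockout replicate 3 was the highest of all. The log2 fold change of 2.90 ± 0.48 passed in Mga knockout (adjusted p = 0.00215), while L3mbtl2 knockout at 1.33 ± 0.53 did not (adjusted p = 0.0768). The Pcgf6 knockout call (2.63 ± 0.53, adjusted p = 0.0191) was lost without any 1 of the wild type or Pcgf6 knockout libraries (adjusted p of 0.0565 to 0.141). Gm17322 was at 0.829, 0.725 and 0.918 FPKM in wild type against 3.87 and 4.26 FPKM in Pcgf6 knockout, its highest genotype (2.18 ± 0.17, adjusted p = 0.000368), and it shares exon bases with the coding gene Cyp11a1. Outside Pcgf6 knockout Gm17322 averaged under 2 FPKM, so it met the threshold only through that group.

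Some predicted genes stood apart in L3mbtl2 knockout. Gm11496 was at 1.66, 1.87 and 3.04 FPKM in wild type, 2.85, 1.56 and 2.58 FPKM in Mga knockout, 20.2 and 18.4 FPKM in L3mbtl2 knockout and 2.74 and 4.09 FPKM in Pcgf6 knockout. Gm20005 was at 1.40, 1.63 and 1.13 FPKM in wild type, 2.16, 1.93 and 1.11 FPKM in Mga knockout, 9.58 and 12.6 FPKM in L3mbtl2 knockout and 2.16 and 2.42 FPKM in Pcgf6 knockout. In both genes the L3mbtl2 knockout libraries lay above all the other 8, and Mga knockout overlapped wild type. Gm20005 averaged under 2 FPKM over those other 8, so it met the threshold only through L3mbtl2 knockout. Its rise there is thus partly set by the choice of genes. The log2 fold change in L3mbtl2 knockout was 3.13 ± 0.32 for Gm11496 (adjusted p = 0.000258) and 2.92 ± 0.28 for Gm20005 (adjusted p = 0.000204). Against Pcgf6 knockout the differences were 2.49 ± 0.35 (adjusted p = 0.00175) and 2.22 ± 0.31 (adjusted p = 0.00165), and between Mga and L3mbtl2 knockout they were -3.04 ± 0.32 (adjusted p = 0.000453) and -2.65 ± 0.28 (adjusted p = 0.000463). AU020206, among the 10 most abundant lincRNAs, also rose in L3mbtl2 knockout, from 24, 23.2 and 22.7 FPKM to 51.0 and 48.7 FPKM (1.09 ± 0.12, adjusted p = 0.000398). It did not pass in Mga knockout (0.11, adjusted p = 0.471) or in Pcgf6 knockout (0.15, adjusted p = 0.51). Summed macrophage markers, 179 to 186 FPKM in wild type, were 28.8 to 67.1, 491 to 505 and 262 to 263 FPKM in Mga, L3mbtl2 and Pcgf6 knockout. Their part in these values was not tested.

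Gm40040 and Gm33222 fell in Mga knockout. Gm40040 was at 4.53, 5.09 and 5.17 FPKM in wild type against 1.74, 2.18 and 1.27 FPKM in Mga knockout (-1.49 ± 0.22, adjusted p = 0.00139). Gm33222 was at 2.53, 2.31 and 1.88 FPKM in wild type against 1.38, 0.705 and 0.930 FPKM in Mga knockout (-1.12 ± 0.23, adjusted p = 0.00538). For each, the 3 Mga knockout libraries lay below all wild type libraries, and neither other knockout passed against wild type.

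Hosts of small RNAs were few among the 90. The small nucleolar RNA hosts Snhg6, Snhg12 and Snhg20 gave 1 fall and no rise in Mga knockout and no call in the other knockouts. With 16.7% of all genes tested lower and 22.8% higher in Mga knockout, 23.4% higher and 16.7% lower in L3mbtl2 knockout, and 5.45% higher and 4.62% lower in Pcgf6 knockout, counts over 3 genes do not set the hosts apart. By limma's unadjusted p under 0.05 there were 2 falls and 0 rises in Mga knockout and 0 of either in the other knockouts. Snhg12 was at 12.9, 13.4 and 14.7 FPKM in wild type against 6.60, 11.4 and 4.53 FPKM in Mga knockout (-0.96 ± 0.27, adjusted p = 0.0239), all of the latter below wild type. Without wild type replicate 1, 2 or 3 or Mga knockout replicate 1 the adjusted p was 0.0521 to 0.0768. Snhg6 was at 28, 32.1 and 32.2 FPKM in wild type and 21.6, 28.4 and 14.3 FPKM in Mga knockout, which overlapped (-0.57 ± 0.21, adjusted p = 0.0586), and it passed without the library labelled replicate 2 (-0.80, adjusted p = 0.00417). Mir17hg, which carries a microRNA cluster with Mir17, Mir18 and Mir20a, was at 6.25, 4.94 and 5.44 FPKM in wild type, 9.11, 5.56 and 5.27 FPKM in Mga knockout, 6.23 and 4.47 FPKM in L3mbtl2 knockout and 10.1 and 9.77 FPKM in Pcgf6 knockout. Only Pcgf6 knockout lay apart from wild type, without passing (0.84 ± 0.24, adjusted p = 0.0636). No lincRNA of the p53 list was among the 90.

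Between knockouts, 8 lincRNAs were higher and 22 lower in Mga than in L3mbtl2 knockout, where 10.9% of all genes tested were higher and 12% lower. Mga against Pcgf6 knockout gave 13 higher and 13 lower, beside 12% and 10.6% of all genes tested. L3mbtl2 against Pcgf6 knockout gave 19 higher and 7 lower, beside 16.6% and 13.9%. With only the groups compared in the fit these counts became 1 and 7, 0 and 1, and 40 and 23. Of the 13 lincRNAs listed for embryonic stem cells, 8 were lower in Mga than in L3mbtl2 knockout and none higher (9 and 0 by limma's unadjusted p under 0.05). Norad, on that list but counted by its clone name 2900097C17Rik, was higher in Mga than in L3mbtl2 knockout. This call was lost without 1 library and in 1 other setting.

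Position was not used to choose the genes. The 90 lincRNAs had a median of 3 exons, as did the other 1697 candidates, and 13 of the 90 (14.4%) had 1 exon against 7.66% of the others. Chromosome 5 held 10 of them, chromosome 2 held 9 and chromosome 11 held 8. The kit does not mark strand, so reads from overlapping genes cannot be told apart. Of the 90, 13 share exon bases with another gene, and 3 share more than 20% of their exon length, namely 4833407H14Rik (67.5%), 2410018L13Rik (35.6%) and Gm26809 (28.7%).

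Pairs of a lincRNA and a protein-coding gene that start head to head within 5 kb numbered 12 (13.3% of the 90, against 13.6% of the other candidates). Over these 12 pairs the log2 fold changes of the partners correlated with a Pearson r of 0.75 in Mga knockout, 0.46 in L3mbtl2 knockout and 0.90 in Pcgf6 knockout. Over the other 67 pairs with a tested neighbor r was 0.06, 0.06 and 0.29. Over the 36 of these within 50 kb it was 0.006, 0.18 and 0.31. These are correlations across genes measured in the same libraries without strand, and genes are not independent replicates. Partners also share any shift of their whole chromosome, as on chromosome 11 (a median of -0.31 in Pcgf6 knockout), and its part was not tested. In Mga knockout 6 of the 12 lincRNAs were called, and the partner was called in the same direction for 4 of them and not called for 2. In L3mbtl2 knockout 6 were called, with 5 partners called in the same direction and 1 not called. In Pcgf6 knockout 2 were called, and neither partner was called. Among the other pairs with a tested neighbor, 35 lincRNAs were called in Mga knockout, and the neighbor was called in the same direction for 7, in the opposite direction for 6 and not called for 22. The same tally was 10, 5 and 18 of 33 in L3mbtl2 knockout and 1, 0 and 12 of 13 in Pcgf6 knockout. The shares of all genes called, for comparison, were 22.8% higher and 16.7% lower in Mga knockout, with 23.4% and 16.7% for L3mbtl2 knockout and 5.45% and 4.62% for Pcgf6 knockout.

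Gm12688 and Foxd3, a transcription factor gene of pluripotent cells and neural crest, start 1316 bases apart. Gm12688 was at 1.19, 2.24 and 1.55 FPKM in wild type, 4.43, 5.54 and 6.95 FPKM in Mga knockout, 6.19 and 4.33 FPKM in L3mbtl2 knockout and 3.25 and 3.31 FPKM in Pcgf6 knockout, so that all knockout libraries lay above wild type. Foxd3 had group means of 7.22, 18.9, 25.8 and 18.2 FPKM in the same order. The log2 fold changes of Gm12688 and Foxd3 were 1.72 and 1.36 in Mga knockout (adjusted p = 0.00126 and 0.000934), 1.63 and 1.83 in L3mbtl2 knockout (adjusted p = 0.00261 and 0.00041) and 0.98 and 1.33 in Pcgf6 knockout (adjusted p = 0.0603 and 0.00726).

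Gm17586 differed from its partner. Its start lies 168 bases from that of Mafg, which encodes a small Maf transcription factor, and their shared promoter region holds the E-box shown above. Gm17586 was at 5.62, 5.11 and 4.84 FPKM in wild type, 5.37, 5.05 and 7.24 FPKM in Mga knockout, 12.8 and 12.6 FPKM in L3mbtl2 knockout and 4.55 and 5.97 FPKM in Pcgf6 knockout. Only L3mbtl2 knockout lay apart from wild type, above it (1.28 ± 0.18, adjusted p = 0.000942), while Mafg had a log2 fold change of 0.04 there (adjusted p = 0.848). Gm11496 likewise starts 2832 bases from Trim25, a ubiquitin ligase of antiviral signaling, and Trim25 rose by 0.58 on the log2 scale in L3mbtl2 knockout (adjusted p = 0.0105), where Gm11496 rose by 3.13.

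**Figure D5:**
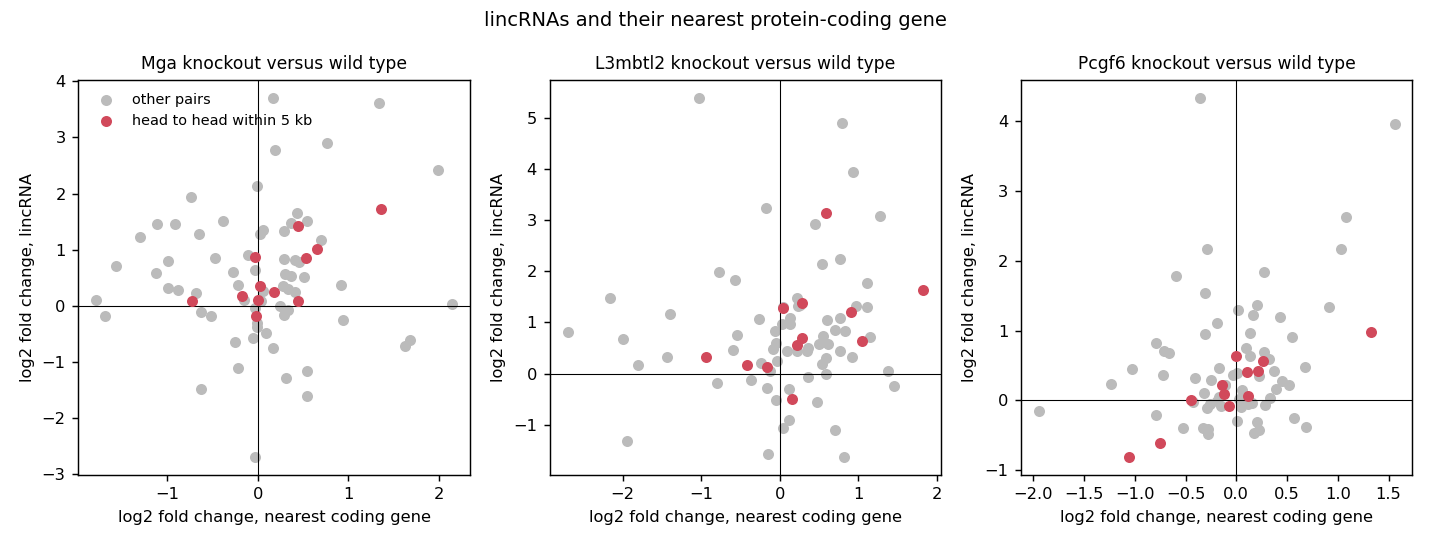
Log2 fold change of each lincRNA (vertical axis) against that of its nearest protein-coding gene (horizontal axis), 1 point per pair and 1 panel per knockout, with pairs that start head to head within 5 kb in red (12 pairs) and all other tested pairs in grey (67 pairs). The red points lie closer to a rising line (r = 0.75, 0.46 and 0.90) than the grey ones (r = 0.06, 0.06 and 0.29).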

How the data were processed

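RNA of 10 libraries was measured per gene. The authors deposited FPKM values, and per the submitters' processing notes Bowtie2 2.2.3, TopHat2 2.0.12 and HTSeq 0.6.0 were used with GRCm38; their scaling is not stated there. Per the labels' protocols a NEBNext Ultra kit was used, which does not mark strand. Types and positions came from GENCODE M21 (30221 of 30460 gene identifiers matched), and depth was recovered from the steps of the FPKM values. Groups came from the labels. The test was limma 3.58.1 (R 4.3.3) on log2(FPKM + 0.1) with a mean-variance trend, for the 15731 genes that reached 0.5 FPKM in 2 or more libraries, all 10 libraries in 1 fit with group as the only term, Benjamini-Hochberg adjusted over all genes tested, threshold 0.05. Fold changes on this scale understate the change of low genes. The fit was tested on simulated data. The members and the gene lists were chosen with earlier results of these data known. Genes named are the 10 with the highest mean, the largest changes that passed with no overlap between libraries, and up to 4 of each list. Foxd3, Norad (2900097C17Rik), Platr26, Platr22, Gm12688 and Gm17586 were named after their values were seen. Alternatives were 2 other pseudocounts, 2 filters, 2 scalings, the groups compared alone, a replicate block, centring by chromosome, and each library left out. The floor of 3 reads covers counting error only, since no molecular identifiers mark the reads, and the standard errors are those of limma, from the spread between libraries. All groups share 1 estimate of that spread, though it was largest in Mga knockout (median SD of 0.338 against 0.0637 to 0.0864). Standard errors and p-values may thus be too small for Mga knockout and too large for the other knockouts. The nearest coding gene of 1 lincRNA is not reported here.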

Additional observations from a re-analysis of the deposited data

How the results depend on the processing

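With each library left out in turn, the lincRNAs higher and lower against wild type numbered 30 to 40 and 7 to 14 in Mga knockout, 25 to 48 and 2 to 7 in L3mbtl2 knockout, and 4 to 28 and 0 to 3 in Pcgf6 knockout. The ranges were 3 to 17 and 12 to 30 for Mga against L3mbtl2 knockout, 2 to 22 and 2 to 20 for Mga against Pcgf6 knockout, and 8 to 32 and 2 to 17 for L3mbtl2 against Pcgf6 knockout. The log2 fold change of Mga in its own knockout was -0.95 to -0.31. With only the 2 groups compared in the fit, Mga knockout gave 28 higher and 6 lower. L3mbtl2 knockout gave 52 higher and 12 lower, and Pcgf6 knockout 38 higher and 6 lower. The knockouts against each other gave 1 and 7, 0 and 1, and 40 and 23. Centred by chromosome, Mga knockout gave 15 lower and Pcgf6 knockout 0, and Gm37724, at 0.58 in L3mbtl2 knockout, was at -0.18 (adjusted p = 0.628). Same-numbered libraries did not deviate together (correlations of -0.02 to 0.035). This cannot show whether they were prepared together, which the labels do not state. With the replicate block 3 were lower in L3mbtl2 knockout and 0 in Pcgf6 knockout. A mean of at least 1 FPKM gave 157 lincRNAs and of at least 5 gave 52. Choosing by a wild type mean of at least 2 FPKM, added after seeing the data, gave 72, of which 19 were higher and 14 lower in Mga knockout. In L3mbtl2 knockout 21 were higher and 7 lower, and in Pcgf6 knockout 7 were higher and 2 lower. This choice in turn favors genes that are high in wild type. Why the counts moved between settings was not tested. Over single lincRNAs 9369 values kept their side of the threshold, 570 lost it, 320 gained it and 1 (Gm37724, above) turned direction. Among the 9369 are 234 values that changed sign and were called in neither fit. At the lowest levels 1 read limits the values.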
